A study of Mus musculus with 12 samples.

Results

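The neuropeptide genes of sensory neurons were followed across a RiboTag experiment in cultured mouse dorsal root ganglion (DRG) neurons. The set was defined by symbol and held 8 genes: galanin (Gal), neuropeptide Y (Npy), the CGRP genes Calca and Calcb, the substance P precursor Tac1, vasoactive intestinal peptide (Vip), neurotensin (Nts) and the PACAP precursor Adcyap1. The deposited table of 15391 genes had a row for 7 of the 8. No row mapped to Vip, whose level was not analysed here, and all 7 others passed the filter on low counts, as did 8773 genes in all.

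All 4 groups had the genotype RPL22HA+/+;Advillin-Cre+, in which Advillin-Cre switches on an HA-tagged ribosomal protein in sensory neurons, and all came from animals with a sciatic nerve injury made before culture (preconditioned). The groups were control IP (titled AAV-Control), shLarp1 IP (AAV-shLarp1), control input (titled AAV-shControl) and shLarp1 input (AAV-shLarp1), where IP is the RNA pulled down with anti-HA antibody and input is RNA of the whole culture. AAV is adeno-associated virus, and shLarp1 is a short hairpin RNA against Larp1, an RNA-binding protein that acts on mRNAs of the translation machinery. The control virus is worded differently in the titles of the IP and of the input, and only 1 hairpin is named. The ages of the animals are not given in the labels, and since every group was preconditioned, induction by injury was not measured.

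Neuropeptides are made as larger precursors that enter dense-core vesicles, where convertases and amidating enzymes cut them into active peptides that are released on stimulation. CGRP and substance P are the classical peptides of pain-sensing neurons and act on blood vessels and the spinal cord. Galanin, neuropeptide Y, VIP and PACAP are known for strong induction in DRG neurons after cut or crush of a peripheral nerve, whereas CGRP and substance P are known to decline after such injury.

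The 12 columns of the table held 3126591 to 3177552 counts each in the IP and 564095 to 760140 in input. The 3 columns of a group varied about as much as random parts of 1 library (median chi-square per gene 1.46 to 1.53 over the 4 groups), and nothing in the labels assigns them to separate cultures or animals. Each group was taken as 1 sample (n = 1), the ratios below carry no p-value, and each has a 95% interval for counting error only. Tests that take the columns as replicates were run as alternatives. Libraries were made by PCR without molecular identifiers, so reads are not independent molecules. Larp1 had 147, 141 and 154 counts in the control IP columns and 55, 49 and 45 in the shLarp1 IP columns (log2 -1.72, interval -2.00 to -1.45). All 20 neuron markers checked were in the table, and their median ratio of IP to input was 1.98 on the log2 scale with the control virus, over the 19 with counts in both fractions. Satellite and Schwann cell markers had -0.41 there, and fibroblast and macrophage markers -0.64 and -1.08.

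The promoters of 6 members are shown first. For 5 of them the interval lay apart from equal levels between the viruses in the IP, although none passed the rule for a call there, and Adcyap1 had the highest ratio of IP to input. Each is the stretch of 250 bases before the transcript start, written 5′ to 3′ on the gene's strand, from RefSeq on GRCm38.p6. Capitals mark TGACG, the core of the cAMP response element (TGACGTCA), on either strand, or the AP-1 motif TGANTCA, whose binding proteins include Jun and Atf3 family members. Adcyap1 has 2 annotated starts, of which the first is shown, at chr17:93198767-93199016 (+ strand). The other positions were Gal at chr19:3414545-3414794 (- strand), Npy at chr6:49822460-49822709 (+ strand), Calca at chr7:114636358-114636607 (- strand), Nts at chr10:102490419-102490668 (- strand) and Tac1 at chr6:7554811-7555060 (+ strand).
Gal: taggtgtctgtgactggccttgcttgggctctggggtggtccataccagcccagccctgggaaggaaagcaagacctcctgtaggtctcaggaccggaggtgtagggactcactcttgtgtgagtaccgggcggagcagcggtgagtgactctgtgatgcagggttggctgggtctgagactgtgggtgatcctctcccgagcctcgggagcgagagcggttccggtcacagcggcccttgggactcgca
Npy: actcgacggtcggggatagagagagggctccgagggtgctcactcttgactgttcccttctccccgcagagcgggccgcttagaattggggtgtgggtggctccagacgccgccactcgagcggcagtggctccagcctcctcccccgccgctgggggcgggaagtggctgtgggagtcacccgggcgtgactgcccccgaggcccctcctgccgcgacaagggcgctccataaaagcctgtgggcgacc
Calca: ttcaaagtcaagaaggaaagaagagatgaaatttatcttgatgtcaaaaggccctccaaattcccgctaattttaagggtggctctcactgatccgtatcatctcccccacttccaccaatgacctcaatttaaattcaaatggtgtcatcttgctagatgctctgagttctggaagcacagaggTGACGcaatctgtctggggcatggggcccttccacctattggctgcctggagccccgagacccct
Nts: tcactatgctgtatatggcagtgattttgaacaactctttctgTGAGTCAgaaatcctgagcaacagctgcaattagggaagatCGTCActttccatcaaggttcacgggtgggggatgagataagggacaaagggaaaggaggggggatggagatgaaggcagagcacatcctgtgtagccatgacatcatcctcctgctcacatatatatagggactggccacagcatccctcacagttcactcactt
Tac1: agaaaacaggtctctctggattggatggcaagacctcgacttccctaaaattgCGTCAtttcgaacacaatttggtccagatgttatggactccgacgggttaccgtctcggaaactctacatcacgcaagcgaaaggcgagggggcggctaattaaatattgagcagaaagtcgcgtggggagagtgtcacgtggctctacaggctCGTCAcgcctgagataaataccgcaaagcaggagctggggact
Adcyap1: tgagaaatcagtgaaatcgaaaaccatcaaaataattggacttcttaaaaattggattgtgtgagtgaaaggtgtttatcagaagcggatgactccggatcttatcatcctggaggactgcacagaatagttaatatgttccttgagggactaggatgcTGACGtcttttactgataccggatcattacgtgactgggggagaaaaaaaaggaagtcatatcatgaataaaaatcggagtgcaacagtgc
The Calca window held TGACG 65 bases before the start. Tac1 held it on the opposite strand at 197 and 43 bases. Nts held it on the opposite strand at 166 bases and also had the AP-1 motif, as TGAGTCA, at 207 bases. Adcyap1 held TGACG at 91 bases before the start shown, and the Vip window, not shown, at 79 bases. Neither Gal nor Npy had a match to these motifs. The core TGACG occurs in 17.8% of all 32851 promoter windows, the full element in 1.55% and TGANTCA in 6.75%. A match describes the letters of the window and is not evidence of binding.

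Larp1 is known to bind mRNAs that begin with a C followed by a run of pyrimidines, the terminal oligopyrimidine (TOP) tract. The first bases of the annotated transcripts, shown here with leading pyrimidines in capitals, were therefore read from the same table.
Gal start: ggaggcggcgctgag
Npy start: Cgctctccgcatccc
Calca start: CCCgactcaccacgg
Nts start: Tgaaagccagctgaa
Tac1 start: agaccgcactcggac
Npy began with C and 1 pyrimidine in all, and Calca with 3, while the other 3 starts shown had 1 or 0. None of the 8 starts of the 7 members with an entry had a C with 4 further pyrimidines, against 2.51% of all windows. Annotated starts are a weak readout of this feature, since 14 of 63 ribosomal protein genes (22.2%), which are known TOP mRNAs, had it by the same rule. Calcb had no entry.

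Galanin, which modulates pain signalling through G-protein-coupled receptors, had 2485, 2400 and 2405 counts in the control IP columns and 3376, 3355 and 3346 in the shLarp1 IP columns. The input columns held 121, 134 and 154 counts with the control virus and 163, 151 and 134 with shLarp1. All shLarp1 IP columns lay above all control IP columns also after scaling, and the input columns overlapped. Its summed level was 543 CPM (counts scaled to library size with TMM factors) in control IP, 676 in shLarp1 IP, 333 in control input and 319 in shLarp1 input, and only the inputs were neighbours that could not be separated within counting error.

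Neuropeptide Y, a peptide that dampens transmitter release, had 1981, 1922 and 1784 counts in control IP and 2575, 2497 and 2458 in shLarp1 IP. Its input columns held 81, 93 and 79 counts with the control virus and 106, 120 and 112 with shLarp1. The IP groups did not overlap. The control IP columns of Npy were the only one of 28 sets of 3 columns (7 genes in 4 groups) to differ beyond sampling noise at 0.05 (chi-square p = 0.0046, unadjusted). Its order was the same as that of Gal in the IP, with 505 CPM in shLarp1 IP above 424 in control IP, followed by 240 in shLarp1 input and 206 in control input, and again the 2 inputs did not separate.

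Adcyap1, whose peptide PACAP raises cAMP in its target cells, had 285, 272 and 277 counts in control IP and 330, 328 and 356 in shLarp1 IP. In input it had 5, 7 and 4 counts with the control virus and 11, 5 and 6 with shLarp1. Both IP levels (62.2 and 68.0 CPM) lay far above both input levels (13.0 and 15.6 CPM), while neither pair of like fractions separated within counting error.

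Calca, which encodes calcitonin and, by splicing in neurons, alpha-CGRP, had 1619, 1626 and 1624 counts in control IP and 1952, 2033 and 1917 in shLarp1 IP. In input it had 113, 92 and 103 counts with the control virus and 84, 84 and 81 with shLarp1. It was the only member whose 4 levels all separated from their neighbours in order: 396 CPM in shLarp1 IP, 363 in control IP, 251 in control input and 177 in shLarp1 input. Counts per gene do not tell calcitonin from CGRP transcripts.

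Calcb, the beta-CGRP gene and neighbour of Calca on chromosome 7, had 326, 315 and 330 counts in control IP, 345, 338 and 353 in shLarp1 IP, 21, 17 and 23 in control input and 21, 16 and 19 in shLarp1 input. The IP levels (72.4 and 69.5 CPM) were not separable, nor were the input levels (49.7 and 39.8 CPM). Calca and Calcb are near-identical over part of their sequence, so reads may have been divided between them by the authors' counting. The count ratio of Calca to Calcb was 5.01 in control IP, 5.70 in shLarp1 IP, 5.05 in control input and 4.45 in shLarp1 input.

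Tac1, the precursor of substance P and neurokinin A, was the member with fewest counts: 53, 38 and 46 in control IP and 36, 28 and 35 in shLarp1 IP. Its input columns held 4, 4 and 2 counts with the control virus and 1, 3 and 3 with shLarp1. None of its neighbours in order (10.2 CPM in control IP, 8.15 in control input, 6.64 in shLarp1 IP, 4.98 in shLarp1 input) separated, although the IP groups compared directly did. At these counts no difference in the inputs was detectable.

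Neurotensin, a short peptide with roles in pain and gut function, had 497, 500 and 535 counts in control IP and 648, 623 and 613 in shLarp1 IP. Its input columns held 23, 13 and 18 counts with the control virus and 15, 13 and 19 with shLarp1. The IP levels were 114 CPM with the control virus and 126 with shLarp1, and the input levels 44.0 and 33.4 CPM, which did not separate.

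**Figure D1:**
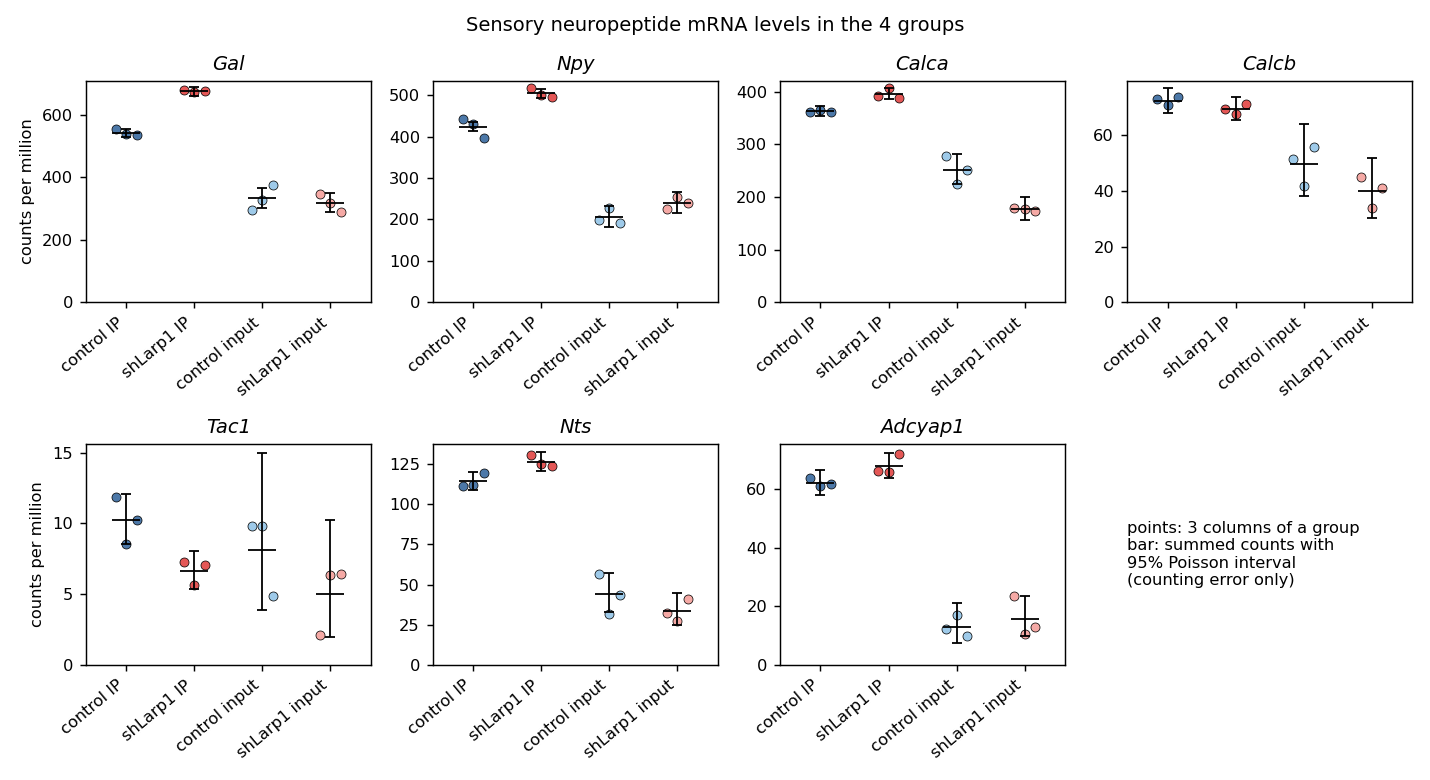
Level of each of the 7 neuropeptide mRNAs in CPM (vertical axis, linear from 0) in the 4 groups. Points are the 3 columns of a group, and the bar with whiskers is the level from summed counts with its 95% Poisson interval (counting error only). For 5 of the 7 genes the highest level is in shLarp1 IP; Calcb and Tac1 are highest in control IP.

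The IP comparison asked which neuropeptide mRNAs differed between the viruses among RNA pulled down with neuronal ribosomes. The differences were small. Gal was 1.24-fold higher with shLarp1 (log2 0.31, interval 0.27 to 0.36) and Npy 1.19-fold (0.25, 0.20 to 0.30), followed by Nts at 1.11-fold (0.15, 0.05 to 0.24) and Calca at 1.09-fold (0.13, 0.07 to 0.18). Adcyap1 had a ratio of similar size (1.09-fold, 0.13), with an interval of -0.0042 to 0.26 that reached equal levels. Calcb had -0.06 (-0.19 to 0.07). Tac1 was 1.54-fold lower by its point value (log2 -0.62, -1.01 to -0.24).

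None of the 7 passed the call rule, which asks that the whole interval lie beyond 1.5-fold, in a comparison where 0.719% of 8766 genes were called higher and 4.41% lower. Intervals of 4 members lay above equal levels (13.4% of all genes) and that of 1, Tac1, below (29.6%). The columns of 5 members were all higher (14.2% of all genes), and those of Tac1 all lower (28.9%). The median of the members was 0.13 and that of all genes -0.08. The 20 neuron markers had a median of 0.01, with 10 values above 0 and 10 below. Their summed level was 6896 to 6981 CPM over the control IP columns and 7204 to 7333 over the shLarp1 IP columns. Of their 93031 counts in control IP and 108448 in shLarp1 IP, Uchl1 alone held 30802 and 40347. The part of these levels in the peptide values was not tested. Calls over all genes split as 63 higher and 387 lower, but as 104 and 207 with upper-quartile factors and 105 and 205 with total counts, which move the median of all genes to 0.05. Under every scaling tried Gal, Npy, Calca, Nts and Adcyap1 kept values above 0 and Tac1 below 0, whereas Calcb ranged from -0.07 to 0.07.

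**Figure D2:**
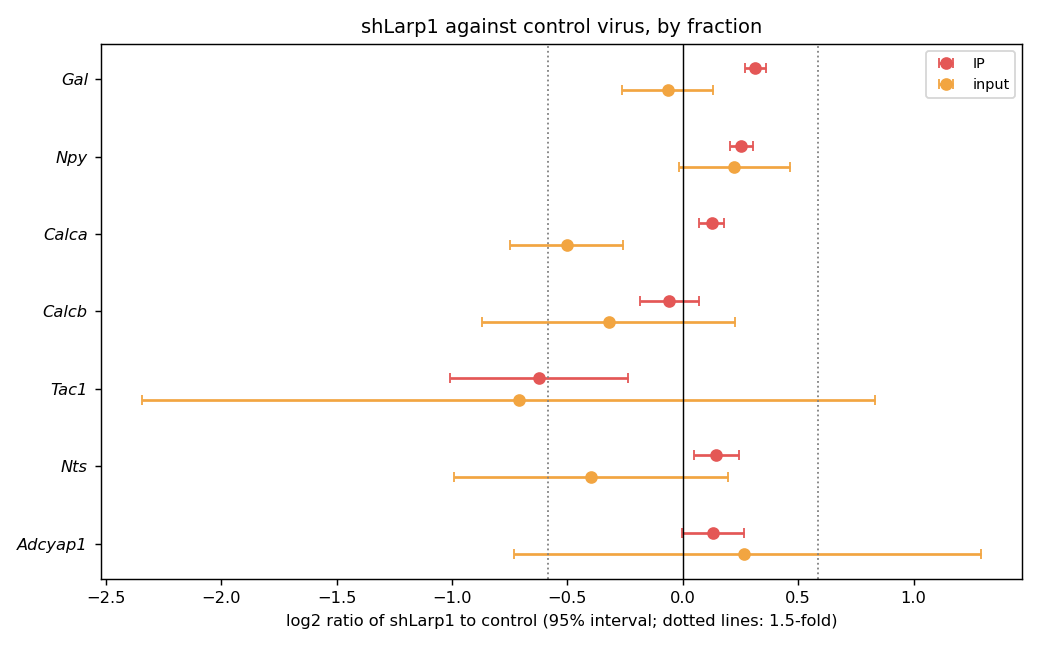
Log2 ratio of shLarp1 to control virus (horizontal axis) for each neuropeptide gene in IP and in input, with 95% intervals for counting error; dotted lines mark 1.5-fold. Gal and Npy lie furthest right in the IP, at 0.31 and 0.25, Tac1 furthest left, at -0.62, and Calca lies right of 0 in IP and left of 0 in input.

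The scaling cancels when 2 members are compared within 1 contrast, so all 21 pairs were compared. In the IP 15 of the 21 intervals lay apart from 0. Pairs of other genes were not compared in any contrast, so no share over all pairs stands beside such counts. Depth sets the width of these intervals, so the count is not a trait of the set. Gal exceeded Calca by 0.19 (0.12 to 0.26), and the ratio of Gal to Calca counts was 1.48 to 1.53 in the control IP columns and 1.65 to 1.75 in the shLarp1 IP columns. Gal and Npy differed by 0.06, with an interval of -0.0039 to 0.13. Calca exceeded its paralog Calcb by 0.18 (0.05 to 0.32). Tac1 lay below each of the 6 other members, with Gal higher than it by 0.94 (0.56 to 1.31). Calca, Nts and Adcyap1 did not separate from each other, with pair differences of -0.02, -0.0044 and 0.02, whose intervals spanned 0.

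**Figure D3:**
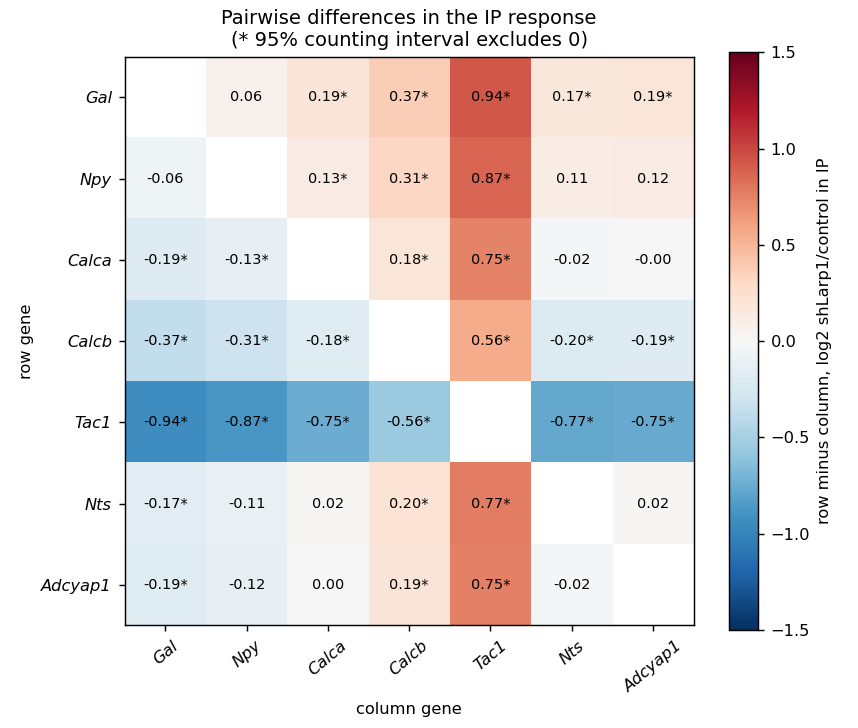
Pairwise differences between members (row minus column) in the log2 ratio of shLarp1 to control virus in the IP, in colour and as printed values. An asterisk marks a 95% counting interval that does not include 0, as for 15 of the 21 pairs, including all 6 pairs with Tac1.

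Counts of the 7 members together made up 0.227% of control IP counts (exact 95% interval 0.224% to 0.230%) and 0.289% of shLarp1 IP counts (0.286% to 0.292%). In input they made up 0.0656% (0.0618% to 0.0696%) and 0.0512% (0.0483% to 0.0542%). These are shares of total counts, without TMM factors. Between the viruses their log2 ratios were 0.35 in the IP and -0.36 in input, where medians of all genes with total counts were 0.05 and -0.37. For IP against input they were 1.79 with the control virus and 2.50 with shLarp1, beside medians of 1.68 and 2.26. Within the set, the share held by Gal was 34.2% in control IP and 36.6% in shLarp1 IP, and that of Tac1 was 0.643% and 0.359%. The share of Calca in input was 27.7% with the control virus and 21.3% with shLarp1.

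The input comparison asked how the same genes differed in RNA of the whole culture. Calca, with all shLarp1 columns below all control columns, was the member with an interval apart from equal levels. It was 1.42-fold lower with shLarp1 (log2 -0.50, -0.75 to -0.26). Gal had -0.06 (-0.26 to 0.13) and Npy 0.22 (-0.02 to 0.46). Calcb had -0.32 (-0.87 to 0.23), Nts -0.40 (-0.99 to 0.19), Tac1 -0.71 (-2.34 to 0.83) and Adcyap1 0.26 (-0.73 to 1.29). In a bulk sample, fewer neurons and less of an RNA per neuron cannot be told apart.

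No member was called in input, where 0.171% of 7588 genes were called higher and 1.01% lower. The interval of 1 member lay below equal levels, against 9.12% of all genes, and columns of 1 member were all lower, against 13.8%. The median of the members was -0.32 and that of all genes -0.14. The summed level of the 20 neuron markers was 2661 to 2764 CPM over the control input columns and 1687 to 1783 CPM over the shLarp1 input columns. The synaptotagmin gene Syt1 was the 1 marker at 0 in control input, and the marker Uchl1 alone had 1772 and 935 counts. The median of the 19 neuron markers with counts in both inputs was -0.03 on the log2 scale, against a called value of -1.12 for Uchl1. The summed level was 564 to 627 and 578 to 656 CPM for 14 glia markers and 1577 to 1733 and 1795 to 1799 CPM for 13 fibroblast markers. It was 189 to 201 and 137 to 144 CPM for 10 macrophage markers. Of their 240 and 198 counts, Lyz2 alone held 95 and 53. For 9 endothelial and mural markers the level was 150 to 158 and 91.0 to 114 CPM. The part of these differences in the Calca value was not tested. The sign of the input values depended on scaling for Gal, which ranged from -0.30 to 0.17, and for Npy, which ranged from -0.01 to 0.46. Calca stayed below 0 at -0.74 to -0.27. Calls over all genes split as 13 higher and 77 lower with the scaling used, as 183 and 35 with DESeq2 size factors, as 119 and 43 with upper-quartile factors, as 7 and 203 with total counts and as 216 and 29 with a control IP column as TMM reference.

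Pair differences, free of this scaling, separated 3 of 21 pairs in input, where counts were lower and intervals wider than in the IP. Npy exceeded Calca by 0.72, Npy exceeded Nts by 0.62 and Gal exceeded Calca by 0.44. The ratio of Npy to Calca counts was 0.717 to 1.01 over the control input columns and 1.26 to 1.43 over the shLarp1 input columns. From summed counts, the ratio of Gal to Calca was 1.33 in control input and 1.80 in shLarp1 input. Calca was thus lower relative to Npy and to Gal in both fractions.

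The difference between the viruses in the IP was set against that in input for each gene as the interaction of virus and fraction. Calca had the largest value with an interval apart from 0, at 0.63 (0.38 to 0.87), with the IP higher and the input lower after shLarp1. Gal had 0.38 (0.18 to 0.58). Nts had 0.54, with an interval of -0.03 to 1.11, and Npy 0.03 (-0.21 to 0.27). Calcb, Tac1 and Adcyap1 had 0.26, 0.06 and -0.12, with intervals on both sides of 0. The 20 neuron markers had a median of 0.03, with 10 values above 0 and 10 below. The interval of Nefl lay below 0, at -0.54 (-0.99 to -0.10). Those of 4 markers lay above 0, named here after their values were seen. Uchl1, the 1 marker called, had 1.36 (0.24 in the IP and -1.12 in input), Gap43 had 0.64 (0.16 and -0.48), Stmn2 0.34 (0.09 and -0.25) and Tubb3 0.71 (-0.10 and -0.82). The first 3 of these thus had the directions of Calca, and their part in its value was not tested. None of the 7 members was called, in a comparison where 1.38% of 7588 genes were called higher and 5.6% lower. Intervals of 2 members lay above 0, against 9.78% of all genes. The median of the members was 0.26 and that of all genes 0.07. Values of Calca, Gal, Nts and Calcb kept their sign under every scaling, and those of Npy, Tac1 and Adcyap1 did not. Over all genes the split was 105 higher to 425 lower, 47 to 557 with DESeq2 size factors, 54 to 534 with a control IP column as TMM reference and 396 to 139 with total counts, under which Calca passed the rule at 0.99.

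The IP was compared with input to see how far each peptide mRNA was enriched with tagged ribosomes of sensory neurons. With the control virus Adcyap1 was 4.77-fold higher in the IP (log2 2.25, 1.55 to 3.07), Nts 2.60-fold (1.38, 0.98 to 1.80) and Npy 2.06-fold (1.04, 0.86 to 1.23). These 3 of 7 were called higher, in a comparison where 22.6% of 8773 genes were. Gal had 0.71 (0.56 to 0.85), Calcb 0.54 (0.17 to 0.94), Calca 0.53 (0.37 to 0.70) and Tac1 0.33 (-0.60 to 1.42), and none of these was called. With shLarp1, Adcyap1 (2.12), Nts (1.92), Calca (1.16), Gal (1.08) and Npy (1.07) were called higher, 5 of 7, where 25.4% of genes were. Calcb (0.80) and Tac1 (0.42) were not. These counts depended on scaling. With the control virus 1 member was called higher with upper-quartile factors and 6 with total counts, and centring on the neuron marker median gave 0 higher and 5 lower. With shLarp1, upper-quartile factors gave 2 higher, total counts called every member higher, and the centring gave 0 higher and 4 lower. The medians of the members, 0.71 and 1.08, stood beside medians of all genes of 0.70 and 0.92. Calls over all genes split as 1985 higher and 1104 lower with the control virus, but as 1276 and 1601 with upper-quartile factors and 4509 and 652 with total counts. With shLarp1 the split was 2225 and 1158, and 1320 and 1501 or 6147 and 752 under those scalings. The centring split all genes as 521 higher and 3649 lower with the control virus and as 472 and 3235 with shLarp1.

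Most peptide genes lay low among neuronal genes on this scale. With the control virus, all 19 neuron markers with counts in both fractions had a higher ratio of IP to input than Calca, Calcb and Tac1. Gal lay above 1 of the 19, Npy above 2 and Nts above 6. Adcyap1, with 16 summed input counts, lay above 12 of the 19. These ranks use point values, and some markers had few control input counts, such as 2 for Isl1 and 4 for Pou4f1. With shLarp1, Calca lay above 2 of 20 markers, Nts above 9 and Adcyap1 above 11. Nts minus Adcyap1 was -0.88 (-1.69 to -0.06) with the control virus. It was -0.20 with shLarp1, with an interval of -0.94 to 0.54 that spanned 0. Measured from the median of the neuron markers, Calca had -1.44 with the control virus and -0.86 with shLarp1, while Adcyap1 had 0.28 and 0.10. Pair differences in the ratio of IP to input lay apart from 0 for 13 of 21 pairs with the control virus and 10 of 21 with shLarp1. Here too, no share over pairs of other genes was computed.

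**Figure D4:**
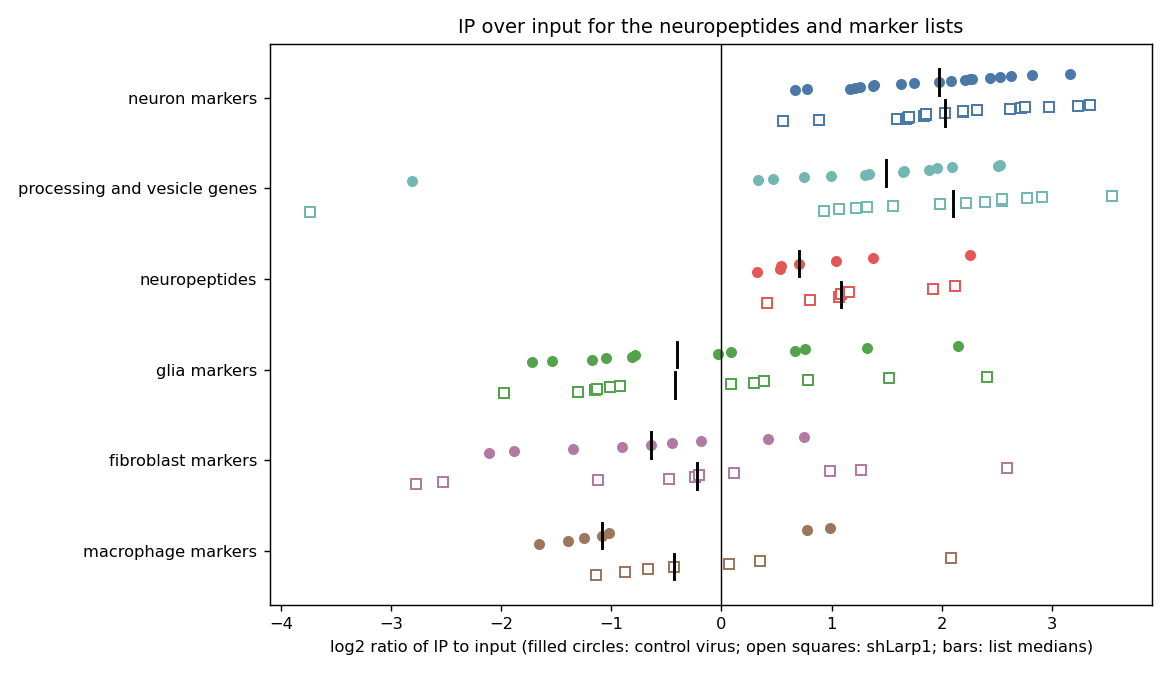
Log2 ratio of IP to input (horizontal axis) for the neuropeptides, genes of peptide processing and dense-core vesicles, and markers of neurons, glia, fibroblasts and macrophages, each point 1 gene with counts in both fractions. Filled circles are the control virus, open squares shLarp1 and black bars list medians; the neuropeptide medians, 0.71 and 1.08, lie between those of glia (-0.41 and -0.42) and neuron markers (1.98 and 2.02).

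Genes of peptide processing and dense-core vesicles were examined beside the peptides they serve. Of 16 listed, 14 could be evaluated, and in the IP 0 were called between the viruses, with 4 values above 0, 10 below and a median of -0.09. The difference from the peptides (0 of 7 called, 5 above 0 and 2 below) was not tested. Vgf, which encodes a granin-like peptide precursor, had 0.03 (-0.05 to 0.10) and carboxypeptidase E (Cpe), which trims cut peptides, -0.03. The granins Scg2 and Scg3 had -0.03 and -0.11. Pcsk1n, an inhibitor of prohormone convertase 1, had -0.20 (-0.30 to -0.11). Furin, a convertase of the secretory pathway in most cells, had -0.46 (-0.70 to -0.23). In input 0 of 14 were called and the median was -0.58, with Scg2 at -1.27 (-2.17 to -0.43). In the interaction Furin was lower (-0.92, -1.26 to -0.59) and 13 were not called. In the IP against input, 5 were higher with the control virus, Vgf (2.53), Pcsk1n (2.51), Cpe (2.10), Scg3 (1.95) and Scg2 (1.30), Furin was lower (-2.81), and 8 were not called. The median was 1.49 with the control virus and 2.10 with shLarp1, with 8 higher and 1 lower there.

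Receptors for the peptides, listed with partners of the calcitonin-receptor-like receptor, were little represented. Of 19 listed, 6 were in the table and 2 passed the filter, and neither was called between the viruses. Npy1r, a receptor for neuropeptide Y, had 50 counts in control IP and 75 in shLarp1 IP (0.43, -0.10 to 0.98). Ramp2, which partners the calcitonin-receptor-like receptor, had 373 and 517 counts in the IP (0.32, 0.12 to 0.51) and 53 and 37 in input (-0.71, -1.36 to -0.08). The gene of that receptor, Calcrl, did not pass the filter, and Ramp1 was not in the table. The Ramp2 values are therefore no readout of a CGRP receptor.

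Of 28 other neuropeptide precursors, 14 were in the table and 6 passed the filter. In the IP 0 of 6 were called between the viruses and the median was 0.07. Cartpt, the CART peptide gene, had 0.05 (-0.06 to 0.16), neuromedin B (Nmb) -0.13 (-0.26 to 0.01), the enkephalin precursor Penk 0.10 and urocortin (Ucn) 0.41 (0.08 to 0.74). In the IP against input with the control virus, Nmb (1.32) and Penk (3.66, from 1 input count) were higher and the other 4 were not called, Nppb among them at -1.22. Of 14 transcription factors and cytokine receptors of the injury response, 13 could be evaluated, 0 were called in the IP and the median was 0.08. Jun had 0.41 (0.27 to 0.56), Atf3, a marker of injured sensory neurons, -0.05 (-0.16 to 0.06), Klf7 0.08, Stat3 -0.39 (-0.53 to -0.24) and Lifr, a receptor for leukemia inhibitory factor, -0.35. In the interaction Stat3 was lower (-1.05, -1.43 to -0.67).

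The genes with the pattern over the 4 groups most like that of a member were taken from 1632 genes with enough counts in both fractions, after each gene's own mean was subtracted. For Gal they included Rtl8a and Gng3, with largest differences of 0.09 and 0.13 on the log2 scale over 4 groups. For Npy they were Slc25a3, S100b and Kif22, each at 0.15. For Calca they were Stmn1, Rplp2 and Prr13, at 0.06 to 0.07. Tac1 had too few input counts for this measure.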

How the data were processed

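RNA was measured in cultured DRG neurons by nanopore cDNA sequencing with a PCR barcoding kit, per the labels' protocols. The authors deposited estimated counts per gene, as whole numbers without any depth scaling. Tools listed in the submitters' processing notes, without roles, are Salmon and minimap2, beside builds mm39 and GRCm39. Versions, filters and strandedness were not given in the sources used here. No gene row had fewer than 13 counts in all. The extraction text speaks of fresh ganglia, whereas the labels give cultured neurons as the source.

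Ensembl identifiers were matched to symbols through a gene name table (13711 matched, 1680 did not). Counts were summed per group, since the 3 columns of a group were counted as 1 sample, and scaled with TMM factors (edgeR 4.0.16, R 4.3.3) from 12 columns. The filter was filterByExpr with a minimum count of 10. Ratios have exact Clopper-Pearson intervals at 95%. For the interaction 0.5 was added to each sum and the interval is a normal one on the log scale. A call needs the whole interval beyond 1.5-fold. Intervals hold counting error only, so depth sets their width: 16 to 448 input counts for the members other than Tac1.

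Alternatives were other scalings, no filter, no minimum fold, edgeR's quasi-likelihood test and DESeq2 1.42.0 with columns taken as replicates, a replicate block, and each column left out. The interval and call rule for a ratio of group sums was run on simulated Poisson counts with known totals. Scaling, filter, interaction and pair comparisons were not tested in this way. The 8 members, Larp1, the genes called in a list, up to 5 per list with most counts, and the 3 genes most like Gal, Npy, Calca or Tac1 were named, except 1 gene that is not reported here. The members and lists were chosen with earlier results of these data known. Promoters came from a RefSeq table on GRCm38.p6, a different build from that of the counts.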

Additional observations from a re-analysis of the deposited data

Results flagged for a closer look

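Calca went in opposite directions in the fractions. All 3 shLarp1 columns lay above all 3 control columns in the IP and below all 3 in input. Over all genes, columns were all higher in the IP for 14.2% and all lower in input for 13.8%. The interaction of virus and fraction was 0.63 on the log2 scale for Calca, higher than for 74.6% of all genes. The input difference was called lower by edgeR's quasi-likelihood test with columns as replicates (adjusted p = 0.0013) and not by DESeq2's Wald test (adjusted p = 0.104). It was -0.50 with TMM factors and -0.29 with DESeq2 size factors. The neuron markers Uchl1 (0.24 in the IP, -1.12 in input), Gap43 (0.16, -0.48) and Stmn2 (0.09, -0.25) also had values above 0 in the IP and below 0 in input, and their part in the Calca value was not tested. They were named after their values were seen, from 20 markers whose interaction values split as 10 above 0 and 10 below (median 0.03). With 1 sample per group the interaction of Calca was not tested beyond counting error. Its value ranged from 0.38 to 0.64 when any column was left out.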

How the results depend on the processing

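Of 350 member values under the alternatives other than columns left out, 321 kept their direction and 287 lay inside the interval given. Those with no minimum fold did so by construction, as only calls change. With no minimum fold, so that an interval beyond equal levels counts as a call, 4 members were higher and 1 lower in the IP, 1 was lower in input, 2 were higher in the interaction and 6 were higher in the IP against input with the control virus. Over all genes that rule gave 1173 higher and 2599 lower of 8766 in the IP and 692 lower of 7588 in input. It gave 742 higher of 7588 in the interaction and 3279 higher of 8773 in the IP against input with the control virus. edgeR's quasi-likelihood test with columns as replicates and a Benjamini-Hochberg threshold of 0.05 called the same numbers of members: 4 and 1, 1, 2 and 6. Of 8773 genes it called, in the same order, 596 higher and 1838 lower, 315 lower, 333 higher and 3243 higher. With the replicate number as a block the numbers of members were again 4 and 1, 1, 2 and 6. Over 8773 genes they were 545 and 1766, 299, 324 and 3167. The replicate numbers do not pair the samples: same-numbered columns had correlations of -0.10 to 0.07 over 18 pairs, and others -0.07 to 0.09. DESeq2's Wald test called 3 members higher in the IP, 1 (Npy, adjusted p = 0.0060) higher in input, 1 higher in the interaction and 6 higher in the IP against input with the control virus. Over all genes it called higher, in that order, 384 of 8771, 743 of 5200, 162 of 5370 and 3091 of 8771. Calca in input, lower by edgeR (adjusted p = 0.0013), was not called by DESeq2 (adjusted p = 0.104). These tests take columns as replicates, and columns of 1 library understate the variation between cultures.

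Among scalings, total counts gave 1 member called higher in the interaction and 6 called higher in the IP against input with the control virus. With shLarp1, total counts called every member higher in the IP against input. Upper-quartile factors left 1 called higher with the control virus and 2 with shLarp1. Centring on the neuron marker median, which subtracts that median by construction, left 0 members called higher and 5 called lower with the control virus, and 0 higher and 4 lower with shLarp1. Over all genes it called 3649 of 8773 lower with the control virus and 3235 of 8771 with shLarp1. All members but Adcyap1 (0.23 and 0.10) were then below 0: Gal at -1.32 with the control virus and -0.94 with shLarp1, Npy at -0.99 and -0.95, Calca at -1.496 and -0.86, Calcb at -1.49 and -1.22, Tac1 at -1.70 and -1.61 and Nts at -0.65 and -0.11. With any 1 of the 12 columns left out, the number of members called did not change in any comparison (0 to 0 for the viruses and the interaction, 3 to 3 and 5 to 5 for IP against input). Leaving out an input column could turn the sign of the input values of Gal (-0.06 to 0.28), Nts (-0.40 to 0.07) and Calcb (-0.32 to 0.03), and brought that of Calca to between -0.50 and -0.18. The input median of all genes also turned its sign over these fits, from -0.14 to 0.18, since scaling was computed anew. The part of that shift in the member values was not tested.

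Over all genes, the calls ranged over the alternatives from 47 to 1173 higher (63 as reported) and 205 to 2599 lower (387) in the IP, from 7 to 743 (13) and 21 to 692 (77) in input, and from 35 to 742 (105) and 139 to 899 (425) in the interaction. They ranged from 521 to 4509 higher (1985) and 652 to 3649 lower (1104) in the IP against input with the control virus, and from 472 to 6147 (2225) and 752 to 3235 (1158) with shLarp1. Without the first shLarp1 input column, 21 genes were lower in input and 35 higher in the interaction. The cause was not tested. Input depth limits Tac1 and Adcyap1 most, with 7 to 22 summed input counts, and variation between cultures was not measured.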
